A study of Caenorhabditis elegans with 2 samples.

Results

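The genes for the heat shock protein 70 (HSP70) family and its relative HSP110 were examined in a chromatin immunoprecipitation and sequencing (ChIP-seq) experiment against RPC-1, which is the largest of the subunits that make up RNA polymerase III. The set held 8 genes of the 19973 nuclear protein-coding genes of Caenorhabditis elegans, named one by one for their family and for the RPC-1 signal and heat shock elements at their 5' ends. They were the heat-inducible cytosolic members F44E5.4, F44E5.5 and hsp-70, the constitutive cytosolic members hsp-1 and hsp-110, the endoplasmic reticulum (ER) members hsp-3 and hsp-4, and the mitochondrial member hsp-6. The chromatin came from whole young adult worms of the wild-type strain N2, with males and females pooled and the age in days unknown per the labels, in 1 group with 2 biological replicates. No heat treatment or other agent is given in the labels, and each library pools all tissues of the worm. Signal in such chromatin does not tell many lightly occupied cells from few heavily occupied ones. The genes were selected on peak signal, rank, summit distance and elements as well as family, so those values are a description and no test was made on them.

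HSP70 proteins bind unfolded stretches of other proteins and release them in cycles of ATP hydrolysis. HSP110 proteins are distant members of the same superfamily that act mainly as nucleotide exchange factors for HSP70. Heat-inducible HSP70 genes are classical targets of heat shock factor (HSF-1 in worms), which binds heat shock elements, arrays of the unit nGAAn in alternating orientation, while ER members respond to unfolded protein in the ER and hsp-6 to mitochondrial stress. All of these genes are transcribed by RNA polymerase II. RNA polymerase III makes tRNA, 5S rRNA, U6 and other small RNAs, so signal at a chaperone promoter is not at one of its known genes.

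The authors' peak lists were used on build ce11. The thresholded list, made by the irreproducible discovery rate procedure, held 1320 peaks, the relaxed list of both replicates together 20662 regions, and each replicate's own relaxed list 30000. A peak's signal is the authors' own value, and its scale changes from list to list, so levels were compared within a list and ranks were counted from the strongest peak down. No read depth was used here, and the depth behind each value is unknown. In the thresholded list 566 of 612 nuclear tRNA genes (92.5%) had a peak, with a median signal of 326 at peaks over a tRNA gene. The relaxed lists include background by design. Within 500 bp of the 5' end they placed a region at 31.1% (pooled), 39.7% (replicate 1) and 39% (replicate 2) of all protein-coding genes, and at 7, 8 and 7 of the 8 chaperone genes.

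Of the 8 genes, 6 had a thresholded peak within 500 bp of the annotated 5' end, where 2.51% of protein-coding genes did (501 of 19973). These were F44E5.4, F44E5.5, hsp-70, hsp-1, hsp-110 and hsp-6, on 5 peaks, since F44E5.4 and F44E5.5 share one. The ER genes hsp-3 and hsp-4 had none. Because the genes were chosen with these values known, nothing is read from the distance between 6 of 8 and 2.51%. The same 6 genes were met by the 1320 strongest regions of replicate 1 alone (background 2.67%) and of replicate 2 alone (background 2.21%). They were also met when the summit and not the interval had to lie within 500 bp (2.06%), from the coding start (2.44%) and from RefSeq's 5' ends (2.5%). Within 250 bp 5 genes remained (1.82%), without hsp-6. Among the 660 strongest thresholded peaks 4 remained (0.816%), F44E5.4, F44E5.5, hsp-1 and hsp-110.

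The sequences below show the DNA at these peaks, since the elements they hold differ between the members. Each is 300 bp of WBcel235 (ce11) centred on the summit of the thresholded peak, written 5' to 3' on the strand of the named gene. Capitals mark the 3-base cores (GAA or TTC) of every run of at least 3 alternating units spaced by 2 bases.
F44E5.5 (plus strand, chrII:11759319-11759618): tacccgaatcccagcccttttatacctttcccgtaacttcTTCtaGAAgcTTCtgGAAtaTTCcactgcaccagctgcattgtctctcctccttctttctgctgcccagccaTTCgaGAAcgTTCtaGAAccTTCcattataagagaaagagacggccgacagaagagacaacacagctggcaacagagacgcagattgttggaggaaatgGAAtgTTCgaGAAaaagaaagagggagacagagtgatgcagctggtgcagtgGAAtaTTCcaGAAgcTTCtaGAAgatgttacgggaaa
hsp-110 (minus strand, chrIII:8447003-8447302): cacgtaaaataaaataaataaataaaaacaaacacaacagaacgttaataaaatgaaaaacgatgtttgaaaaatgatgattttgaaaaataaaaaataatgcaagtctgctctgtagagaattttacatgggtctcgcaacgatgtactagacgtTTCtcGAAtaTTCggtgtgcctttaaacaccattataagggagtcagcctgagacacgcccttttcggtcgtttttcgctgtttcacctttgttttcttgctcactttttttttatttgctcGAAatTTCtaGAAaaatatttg
hsp-6 (minus strand, chrV:4826982-4827281): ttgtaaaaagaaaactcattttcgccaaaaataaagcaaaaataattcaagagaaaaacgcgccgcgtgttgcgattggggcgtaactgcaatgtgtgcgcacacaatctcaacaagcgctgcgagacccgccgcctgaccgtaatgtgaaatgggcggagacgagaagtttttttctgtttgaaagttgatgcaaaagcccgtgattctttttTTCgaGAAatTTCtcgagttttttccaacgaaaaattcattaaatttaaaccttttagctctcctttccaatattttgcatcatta
hsp-1 (plus strand, chrIV:17278395-17278694): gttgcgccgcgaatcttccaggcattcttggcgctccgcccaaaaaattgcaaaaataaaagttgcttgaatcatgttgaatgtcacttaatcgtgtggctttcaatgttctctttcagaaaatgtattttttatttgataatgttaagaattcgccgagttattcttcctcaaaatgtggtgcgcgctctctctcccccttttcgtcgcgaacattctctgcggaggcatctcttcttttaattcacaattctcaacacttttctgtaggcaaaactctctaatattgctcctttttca

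The promoter between F44E5.4 and F44E5.5 stood near the top of the list. Both genes encode heat-inducible HSP70 and are transcribed away from each other on chromosome II, F44E5.4 (WBGene00009691) from 11759311 to 11757107 and F44E5.5 (WBGene00009692) from 11759662 to 11761861. The peak, from 11759260 to 11759707, spans the 350 bp between them and reaches the first bases of both genes. Its thresholded signal was 1209, rank 4 of 1320. Replicate 1 gave a signal of 337 (rank 7) and replicate 2 a signal of 883 (rank 2). The summit lay -158 bp from the 5' end of F44E5.4 and -193 bp from that of F44E5.5 in the pooled list and in replicate 1, and replicate 2 placed it 18 bp away. No tRNA or snoRNA gene was near: the closest were W03C9.t1 at 199668 bp and K12D12.6 at 116753 bp.

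The 2 coding sequences are identical, at 100% of 1935 aligned bases, so reads from inside either gene cannot be assigned. Of the 32-base words in F44E5.4, 1.84% occur once in the genome, and in F44E5.5 1.94%. The 300 bp at the summit are different, with 89.6% of words unique, and the whole peak interval, whose edges enter the repeated part, has 62.6%. How the authors' alignment treated reads with several positions is not given in the sources used here. At every other member all words of the 300 bp window were unique (100%).

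The third heat-inducible gene, hsp-70 (WBGene00002026, chromosome I, 9320325 to 9322519, minus strand), lies wholly within uggt-2, a gene on the opposite strand. Its coding sequence matches that of F44E5.4 at 80.6% of aligned bases. The peak at its 5' end was narrow, 186 bp from 9322505 to 9322690, with a thresholded signal of 136 at rank 679. The replicates gave 39.9 (rank 719) and 99.4 (rank 655), with summits at -103 and -80 bp. The list thus put the heat-inducible promoters far apart, at ranks 4 and 679, and both replicates kept that order.

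The constitutive cytosolic genes ranked between them. hsp-1 (WBGene00002005, chromosome IV, 17278959 to 17281330, plus strand) encodes the main cytosolic HSP70 of unstressed worms. Its peak, from 17278310 to 17278760, had a signal of 425 (rank 252), with 134 in replicate 1 (rank 283) and 299 in replicate 2 (rank 230). The summit stood at -414 bp and differed by 2 bp between the replicates, the smallest shift among the 5 peaks. hsp-110 (WBGene00016250, chromosome III, 8443910 to 8446909, minus strand) had a peak from 8446982 to 8447305 with a signal of 382 (rank 309). The replicates gave 119.7 (rank 331) and 262 (rank 299), with summits at -236 and -254 bp. The nearest tRNA gene was 502151 bp from the hsp-1 peak and 26168 bp from the hsp-110 peak. hsp-1 ranked above hsp-110 in both replicates.

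The mitochondrial gene hsp-6 (WBGene00002010, chromosome V, 4824124 to 4826760, minus strand), the worm mortalin and a common reporter of mitochondrial stress, had the weakest of the 5 peaks. It was 119 bp wide, from 4827110 to 4827228, with a signal of 112 (rank 733). Replicate 1 gave 34.2 (rank 770) and replicate 2 gave 77.7 (rank 733), with summits at -335 and -372 bp. The peak edge nearest to the 5' end was 350 bp away, so it was counted with a window of 500 bp but not with 250 bp. The 37 bp between the replicate summits was the largest shift among the 5 peaks.

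The ER genes stood apart. hsp-4 (WBGene00002008, chromosome II, 7350112 to 7352645, minus strand), a BiP gene strongly induced by ER stress, had a region at its 5' end in every relaxed list but no thresholded peak within 21488 bp. The pooled signal there was 30.0 (rank 1493 of 20662), just under the lowest signal in the thresholded list, 35.6. Replicate 1 gave 16.07 (rank 1395) and replicate 2 12.8 (rank 2137), with summits at -45 and -68 bp. hsp-3 (WBGene00002007, chromosome X, 6089028 to 6092124, minus strand), the other BiP gene, met a region in replicate 1 alone, with a signal of 8.40 at rank 9515 and a -log10 q value of 0.383. Neither the pooled list nor replicate 2 had a region within 500 bp of its 5' end, and the nearest thresholded peak was 115573 bp away. The coding sequences of hsp-3 and hsp-4 match at 78.1% of aligned bases. By signal, hsp-6 was the last of the genes inside the thresholded list and hsp-4 the first outside it.

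**Figure D1:**
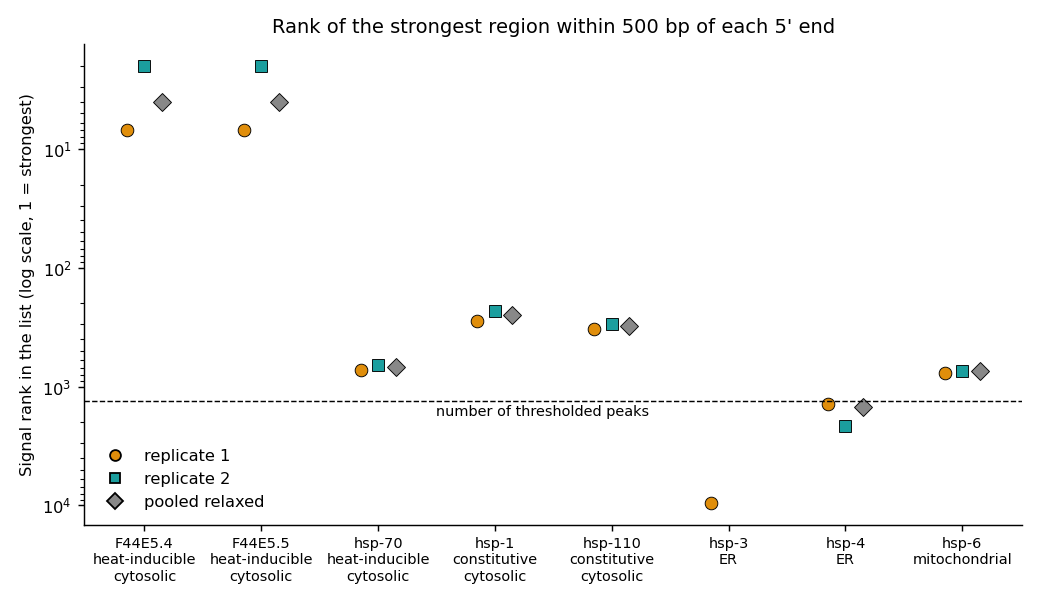
Rank by signal (log axis, 1 at the top is the strongest) of the strongest region within 500 bp of each gene's 5' end in replicate 1 (circles), replicate 2 (squares) and the pooled relaxed list (diamonds); the dashed line marks the 1320 peaks of the thresholded list. F44E5.4 and F44E5.5 share 1 region at ranks 2 to 7, hsp-1 and hsp-110 lie between 230 and 331, hsp-70 and hsp-6 between 655 and 770, hsp-4 falls below the line and hsp-3 has a point from replicate 1 alone.

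In both replicates the 5 peaks fell in the same order, from the F44E5 promoter through hsp-1, hsp-110 and hsp-70 to hsp-6. The ratio of the signal value in replicate 2 to that in replicate 1 ran from 2.19 at hsp-110 to 2.62 at the F44E5 promoter. As the lists' scales differ, it is set beside the same ratio at other peaks and not read as a difference in occupancy. The median ratio over the 372 promoter peaks found in both lists was 2.03 (quartiles 1.58 and 2.64), and all 5 lay within those quartiles. With 2 libraries both values are given in place of an SD.

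To set these peaks among similar ones, thresholded peaks at protein-coding 5' ends (window 500 bp) were taken where no tRNA, rRNA, snRNA or snoRNA gene lay within 500 bp of the peak. There were 249 such promoter peaks, with a median signal of 59.6. Genes annotated as other noncoding RNA or as pseudogenes were not filtered, so polymerase III genes of those kinds can remain at these peaks. By signal the F44E5 peak was number 1 of 249, hsp-1 number 9, hsp-110 number 15, hsp-70 number 42 and hsp-6 number 59. The F44E5 peak had 20.3 times the median signal of these peaks, hsp-1 7.13 times, hsp-110 6.403 times, hsp-70 2.28 times and hsp-6 1.89 times. The peak next in strength to the F44E5 peak, at R107.5, had a signal of 725. hsp-110 shares its peak with rpn-3, a proteasome subunit gene whose 5' end is 200 bp from the summit, closer than the -244 bp of hsp-110. hsp-6 likewise shares its peak with C37H5.5, 228 bp from the summit.

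**Figure D2:**
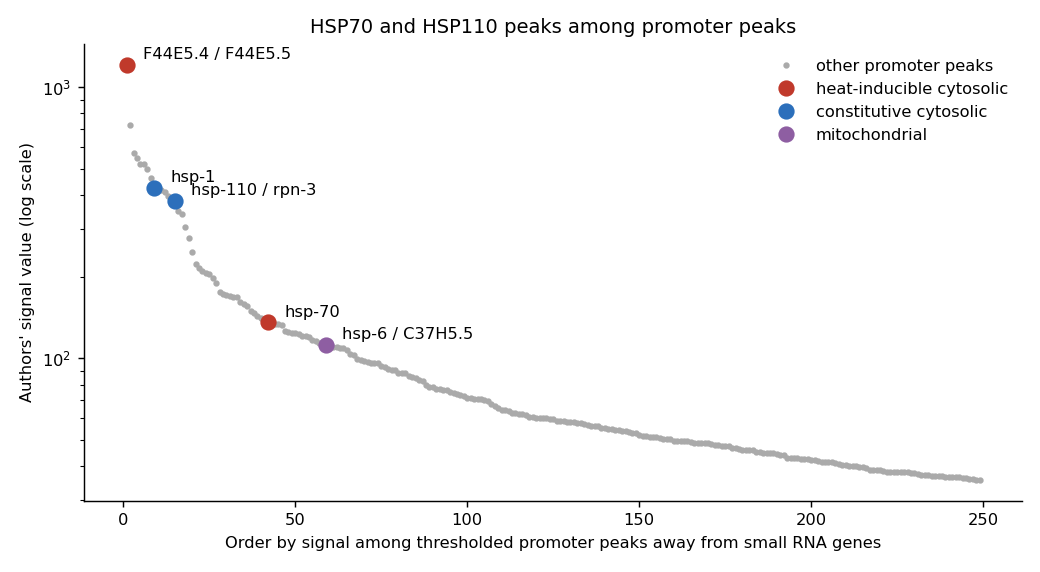
Signal (the authors' value, log axis) of the 249 thresholded promoter peaks with no tRNA, rRNA, snRNA or snoRNA gene within 500 bp, ordered from strongest to weakest, with the 5 peaks of the HSP70 and HSP110 genes coloured by class. The F44E5.4 and F44E5.5 peak (1209) is above all others, hsp-1 (425) and hsp-110 (382) are among the first 15, and hsp-70 (136) and hsp-6 (112) lie on the slope.

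The genes whose ranks in the 2 replicates were nearest to each member's were found by the mean absolute difference of log2 rank over the 2 samples. For hsp-70 these were swsn-3 (0.0217) and rsf-1 (0.0435). For hsp-1 they were C52G5.2 (0.108) and the pair F54D5.9 and dnj-13 (0.111), where dnj-13 encodes a J domain co-chaperone of HSP70. For hsp-110 they were srv-16 (0.0536) and T04D3.8 (0.0655), and for hsp-6 the pair dnj-29 and ndua-2 (0.00874) and gcy-35 (0.0194). Of these, C52G5.2, srv-16, T04D3.8 and gcy-35 have a tRNA, rRNA, snRNA or snoRNA gene within 500 bp of the peak. For the F44E5 promoter the nearest, the pair rocf-1 and pqn-71, differed by 2.21 and also has such a gene nearby, as does the next, pdl-1 (2.47). Log2 ranks are widely spaced at the top of a list, so these larger differences follow in part from the rank itself.

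Heat shock elements were present at the genes with a thresholded peak and not at the ER genes. The motif searched was 3 alternating units, TTC, GAA and TTC with any 2 bases (NN) between neighbours, exact and on both strands, in the 500 bp before the 5' end. It was present at 6 of 8 genes and in 3.25% of all 19973 protein-coding genes (650), and the 6 genes are those with a thresholded peak. The genes were chosen with both known, so this is not a test. The pair of units TTCNNGAA or GAANNTTC, which every 3-unit element contains, is common, in 48.3% of promoters. hsp-4 has 2 such pairs and hsp-3 none.

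The F44E5 promoter carries the densest array. Between the genes lie 4 separate runs, with 5, 5, 3 and 5 units, all inside the peak, and the 500 bp before each gene hold 10 overlapping matches of the 3-unit motif. A run of at least 5 units occurs before 22 of 19973 genes (0.11%), and 4 or more separate runs before 10 (0.0501%). On the strand of F44E5.5 the 4 runs read as follows, from left to right, with cores in capitals.
run centred -292 bp from the 5' end of F44E5.5 (chrII:11759359-11759381): TTCtaGAAgcTTCtgGAAtaTTC
run centred -220 bp (chrII:11759431-11759453): TTCgaGAAcgTTCtaGAAccTTC
run centred -126 bp (chrII:11759530-11759542): GAAtgTTCgaGAA
run centred -69 bp (chrII:11759582-11759604): GAAtaTTCcaGAAgcTTCtaGAA
The first and the last are reverse complements of each other. Each gene thus reads GAAtaTTCcaGAAgcTTCtaGAA on its own strand at the run nearest to it, centred at -59 bp for F44E5.4 and -69 bp for F44E5.5. The summit of the peak was 27 bp from the centre of the second run and 67 bp from that of the third.

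At the other promoters the distance from the element to the summit varied. hsp-110 has 2 elements of 3 units, at 13 bp and 135 bp from the summit, both inside the peak. Here TTCtcGAAtaTTC (chrIII:8447134-8447146, minus strand) is the one near the summit and GAAatTTCtaGAA (chrIII:8447012-8447024, minus strand) the one nearer to the gene. At hsp-70 the element lay 24 bp from the summit, inside the peak. hsp-6 has TTCgaGAAatTTC (chrV:4827055-4827067, minus strand) at 71 bp from the summit, outside the 119 bp thresholded peak but inside the wider region of replicate 1. At hsp-1 the element GAAttTTCtaGAA (chrIV:17278815-17278827, plus strand) lay 276 bp from the summit, outside the peak and closer to the gene, at -138 bp from its 5' end. So 5 of the 6 genes had the motif within the 300 bp at the summit. F44E5.4 and F44E5.5 share a peak, so their summit window is counted for each of them. By peak, the motif was there at the F44E5 promoter, hsp-70, hsp-110 and hsp-6, and not at hsp-1. In that stretch 7.27% of all thresholded peaks (96 of 1320) and 14.1% of the 249 promoter peaks had it. With 150 bp at the summit hsp-6 dropped out. This left 4 genes, on the peaks of the F44E5 promoter, hsp-70 and hsp-110, beside 6.29% of all thresholded peaks (83 of 1320).

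**Figure D3:**
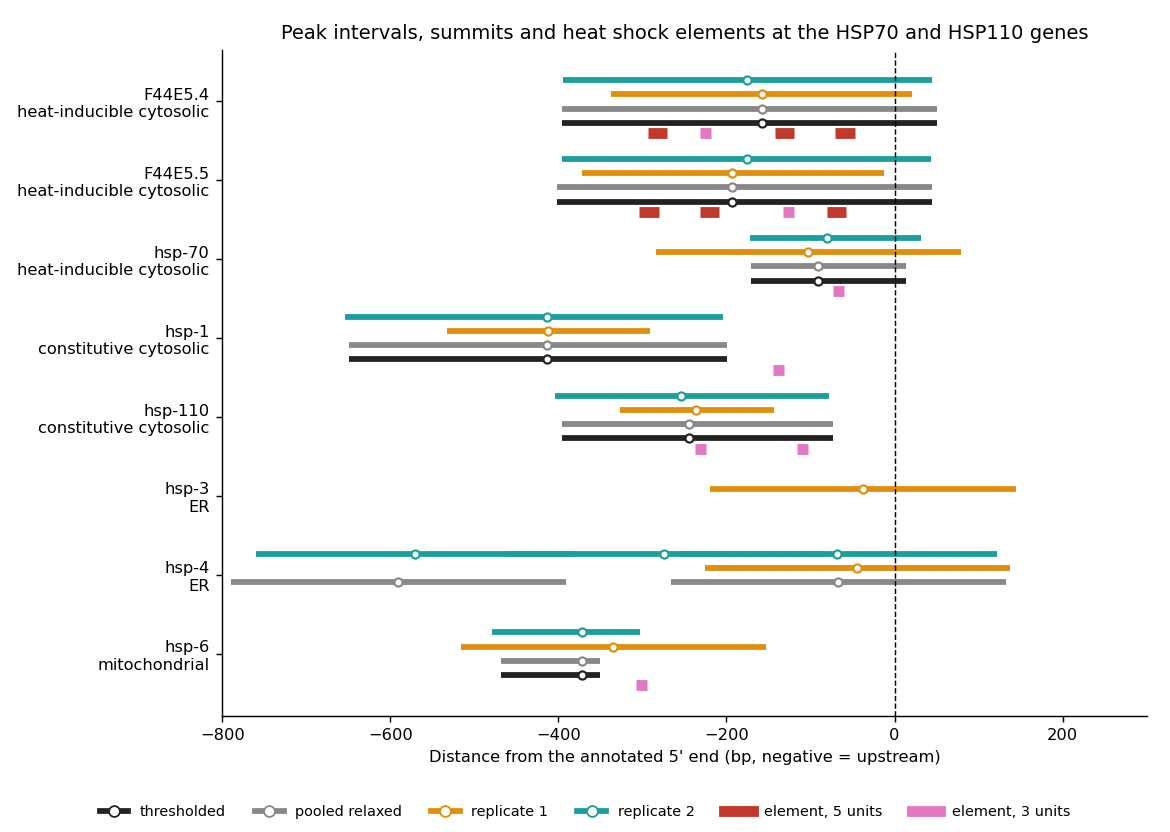
Peak intervals (bars) and summits (open circles) in the 4 lists for each gene, as distance in bp from the annotated 5' end (dashed line, negative values upstream), with runs of heat shock units drawn below each gene in red (5 units) or pink (3 units). The thresholded summits of the heat-inducible genes and hsp-110 lie within 30 bp of an element, the hsp-1 peak ends before its element, and hsp-3 and hsp-4 have none.

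The hsp-1 element and the ER promoter of hsp-4 are shown for contrast, as 200 and 300 bp just before the 5' end, with cores of 3-unit runs in capitals; hsp-4 holds none.
hsp-1 (plus strand, chrIV:17278759-17278958): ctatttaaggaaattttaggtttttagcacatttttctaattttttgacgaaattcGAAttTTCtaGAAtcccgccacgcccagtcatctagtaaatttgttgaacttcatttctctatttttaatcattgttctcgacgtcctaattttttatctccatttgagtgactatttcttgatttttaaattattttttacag
hsp-4 (minus strand, chrII:7352646-7352945): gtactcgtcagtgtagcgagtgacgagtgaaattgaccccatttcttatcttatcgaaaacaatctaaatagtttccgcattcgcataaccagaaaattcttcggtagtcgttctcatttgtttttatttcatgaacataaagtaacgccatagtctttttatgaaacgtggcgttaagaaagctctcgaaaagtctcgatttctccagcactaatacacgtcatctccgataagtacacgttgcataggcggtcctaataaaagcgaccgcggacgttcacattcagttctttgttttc

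The annotated 5' ends are not of 1 kind, which bears on every distance given here. Many worm mRNAs are trans-spliced, so that the annotated 5' end is a splice acceptor and not the start of transcription. The bases just before the 5' end read acag at hsp-1 and tcag at hsp-110 and hsp-6, the CAG typical of acceptors, found at 22.1% of all protein-coding genes. The coding start followed after 5 bp at hsp-1 and hsp-6 and 20 bp at hsp-110. None of the other 5 genes had CAG there. The 3 heat-inducible genes instead had a TATA box (TATAAA on the gene strand, centred at -28.5 bp for F44E5.4, -38.5 bp for F44E5.5 and -42.5 bp for hsp-70), in a stretch, 20 to 50 bp before the 5' end, where 6.57% of genes have it. Further upstream, TATAAA also lay on the gene strand at hsp-110 (-83.5 bp) and hsp-3 (-168.5 bp). Where the 5' end is an acceptor, that stretch cannot show whether a TATA box precedes the start of transcription. The members with CAG had the most distant summits (-414, -372 and -244 bp), and those with TATA in that stretch the closer ones among thresholded peaks (-91, -158 and -193 bp). The distance from the start of transcription was not measured.

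What the peaks covered also differed by class. The peaks of hsp-1, hsp-110 and hsp-6 each overlapped short annotated noncoding RNA genes, F26D10.23 (90 bp) at hsp-1, C30C11.14 (53 bp) at hsp-110, and C37H5.15 and C37H5.16 (272 bp), on opposite strands, at hsp-6. Among the 249 promoter peaks 28 (11.2%, exact 95% binomial interval for counting error 7.60 to 15.8%) overlapped a gene annotated as ncRNA, lincRNA, antisense RNA or microRNA. Whether RPC-1 signal at these promoters belongs to the noncoding genes was not tested. The peaks of F44E5.4, F44E5.5 and hsp-70 overlapped none. The summit fell inside C37H5.15 and C37H5.16 but outside F26D10.23 and C30C11.14. hsp-1 also holds a snoRNA gene, F26D10.24, 1286 bp from the peak, and no thresholded peak covered it. The B box of tRNA promoters was searched as GGTTC, any base, A, any 2 bases and CC, on both strands. The 300 bp at the summit held it at 45.5% of all thresholded peaks, but at 25 of the 249 promoter peaks. All 5 member peaks lacked it there. In the 500 bp before the 5' end it was at 1.07% of protein-coding genes and at none of the 8. At these lower shares its absence does not set the members apart from other promoters. The unfolded protein response element TGACGTGG, searched as an exact match in the 500 bp before the 5' end, was in 1.24% of promoters and in none of the 8. Near matches of it and other ER stress motifs were not searched.

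In the pooled list the 3' end had the lower signal at F44E5.4, hsp-1, hsp-110, hsp-4 and hsp-6, and the higher one at hsp-70. F44E5.5 had a pooled region at its 5' end alone and hsp-3 at its 3' end alone. In the pooled relaxed list 7 of 8 genes had a region within 500 bp of the 3' end, where 29.1% of protein-coding genes did, and 6 within 250 bp (21.2%). It was 7 in each replicate's list too (38% of genes in replicate 1, 38.5% in replicate 2). The thresholded list had a peak there for hsp-70 (1 of 8, background 1.64%). That peak, from 9319889 to 9320407 with a signal of 265, was stronger than the one at the 5' end of hsp-70 (136) and covered the tRNA genes C12C8.t1 and C12C8.t6, which lie in uggt-2 just past hsp-70. At hsp-1 the 3' region had a pooled signal of 32.5, so the 5' end was 13.1-fold higher. For hsp-110 the 5' end was 20.5-fold higher (3' signal 18.6), for hsp-6 5.32-fold (21.1), for hsp-4 1.86-fold (16.12) and for F44E5.4 97.8-fold (12.4). Just past hsp-110 on the same strand lies ufbp-1, with its 5' end at 8443607. The pooled 3' region of hsp-110 starts at 8443673, and that of replicate 2 (8443550 to 8443929) covers this 5' end. Which of the 2 genes the signal belongs to was not tested. The 3' signal of F44E5.4 was near the pooled list's median of 11.5, at rank 8422 with a -log10 q value of 0.264. Its fold is thus taken over a background level. The pooled 3' region of F44E5.4, from 11756623 to 11757022, also covers the noncoding RNA gene F44E5.16 (135 bp). Word uniqueness was not measured at the 3' regions. The pooled 3' region of hsp-3 lay 440 to 839 bp past the 3' end, with a signal of 16.7 (rank 3620). In replicate 1 the region lay 432 to 795 bp past the 3' end, with a signal of 12.598 (rank 2600). At the 5' end of hsp-3 replicate 1 gave 8.40 (rank 9515). The 3' region of replicate 2 (6088732 to 6089111) ranked 9251 and did not overlap that of replicate 1 (6088233 to 6088596).

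Replicate 2 ranked the 3' regions of F44E5.4, hsp-1 and hsp-110 at 1653, 1343 and 1528, with the highest -log10 q value of its list, 3.77. That value was shared by 2938 of the 30000 regions of replicate 2. Replicate 1 ranked the same ends at 16199, 6021 and 15301, with -log10 q values of 0.202, 0.605 and 0.220. hsp-6 had a 3' region in replicate 2 alone (rank 2261), and hsp-4 in replicate 1 alone (rank 4838). F44E5.5 had 3' regions at rank 21075 in replicate 1 and rank 10469 in replicate 2, both within the neighbouring pseudogene F44E5.3. At the 3' ends of F44E5.4, hsp-1 and hsp-110 the replicates' ranks were thus further apart than at the 5' ends of the same 3 genes, whereas at hsp-70 they were close at both ends.

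**Figure D4:**
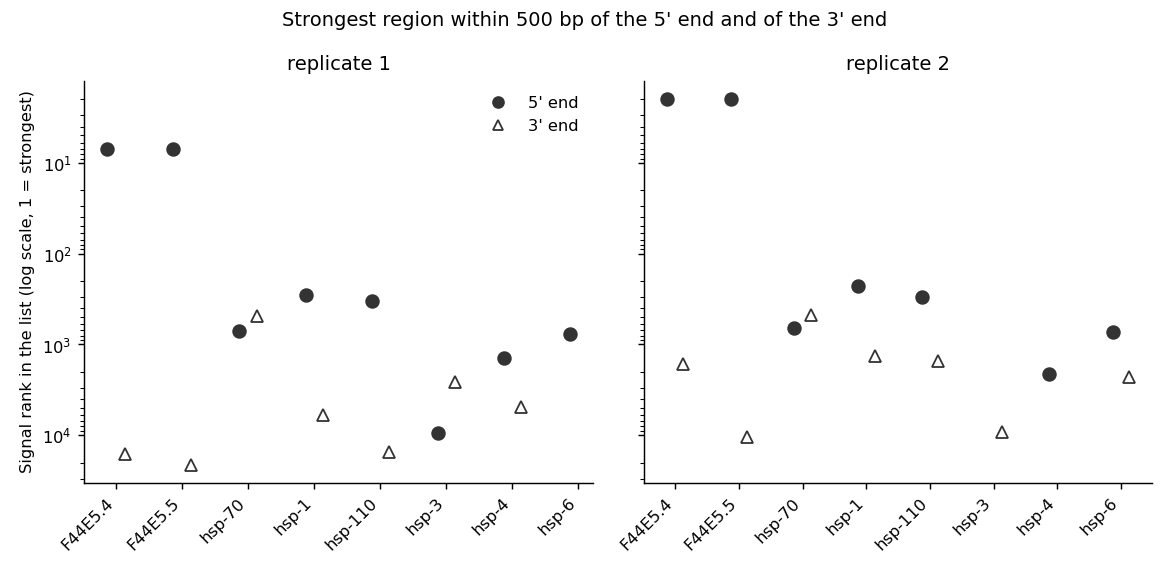
Rank by signal (log axis, 1 at the top is the strongest) of the strongest region within 500 bp of the 5' end (filled circles) and of the 3' end (open triangles) of each gene, for replicate 1 (left) and replicate 2 (right); a missing symbol means that the list has no region there. Apart from hsp-70, whose 3' region covers tRNA genes, the genes with a thresholded peak rank higher at the 5' end wherever both symbols are drawn, and the 3' ranks of F44E5.4, hsp-1 and hsp-110 are lower in replicate 1 (16199, 6021 and 15301) than in replicate 2 (1653, 1343 and 1528).

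Other chaperone and stress genes were counted from lists chosen with earlier results of these data known. Of 85 genes in 7 lists, 15 (17.6%) had a thresholded peak within 500 bp of the 5' end, beside the background of 2.51%. The 4 other genes of the HSP70 superfamily (F11F1.1, stc-1, T24H7.2 and T14G8.3) had none, and neither did the 4 genes of the HSP90 list. Small heat shock proteins had 2 of 16, hsp-16.2 and hsp-16.41 on 1 peak (signal 124). Word uniqueness was not measured at the genes of the 7 lists, so a missing peak there does not show a lack of signal. Chaperonins had 4 of 10, with Y22D7AL.10 and hsp-60 sharing a peak of 549, cct-8 at 120.4 and cct-1 at 98.1. The summit of the shared peak lay -205 bp from the 5' end of Y22D7AL.10 and -608 bp from that of hsp-60. Thus hsp-60 was counted by the edge of the interval and not by its summit. J domain genes had 5 of 29: dnj-13 (419), dnj-12 (143), dnj-29 (109.6), dnj-11 (36.99) and dnj-19 (35.8). The peaks of dnj-11 and dnj-19 were near the lowest signal in the thresholded list, 35.6, and replicate 1 had no region at them. The 1320 strongest regions of replicate 1 met 3 of the 29, and those of replicate 2 met 5. Other co-chaperones had 3 of 10, unc-23 (278), bag-1 (159) and sti-1 (109.8), which all act with HSP70 or HSP90. Of 12 stress regulators 1 had a peak, pek-1 (47.7), an ER stress kinase, and hsf-1 had none. The signal of the F44E5 promoter was above all of these, and that of hsp-1 was above all but the peak of Y22D7AL.10 and hsp-60.

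Outside the 8 genes, a larger share of promoters with the 3-unit element than without it had a peak. This split was made after seeing the data and no test was run on it. Of 644 other genes with the element in the 500 bp before the 5' end, 40 had a thresholded peak (6.21%, exact 95% binomial interval 4.47 to 8.36%), against 455 of 19321 without it (2.35%, interval 2.15 to 2.58%). The intervals cover counting error only, and neighbouring genes can share a peak or an element, so genes are not independent. Leaving out also the 7 lists and genes that share a member's peak, the shares were 4.77% (30 of 629, interval 3.24 to 6.74%) and 2.33% (448 of 19249, interval 2.12 to 2.55%). With the 1320 strongest regions of 1 replicate they were 4.97% and 2.57% in replicate 1 and 6.52% and 2.04% in replicate 2. Among the 660 strongest thresholded peaks they were 1.24% (8 genes, interval 0.538 to 2.43%) and 0.782% (interval 0.662 to 0.916%), where the intervals overlap. Of 8 genes with 10 or more matches of the element, F44E5.4 and F44E5.5 had a peak and the other 6 had none.

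**Figure D5:**
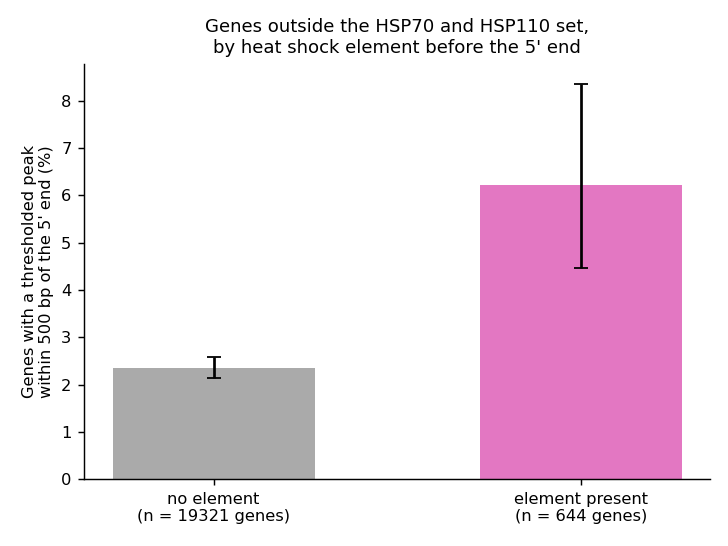
Share of protein-coding genes with a thresholded peak within 500 bp of the 5' end, for genes outside the HSP70 and HSP110 set without (19321 genes) or with (644 genes) a 3-unit heat shock element in the 500 bp before the 5' end; error bars are exact 95% binomial intervals for counting error. The share is 2.35% without and 6.21% with the element.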

How the data were processed

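Whole young adult worms gave 2 biological replicates of RPC-1 ChIP-seq, with fragments of 150 to 350 bp per the labels. The authors deposited narrowPeak lists. Per the submitters' list of files, relaxed lists were called on each replicate and on both pooled, with a control, and the thresholded list was derived from them. The deposited signal value of each peak is the authors' own, and the deposited -log10 q values served as description. Which aligner and peak caller were used is not given in the sources used here, and the control was not analysed here.

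Genes came from the Ensembl 115 annotation of WBcel235, which is ce11, and sequence from RefSeq's WBcel235. RefSeq marks hsp-3 and hsp-4 as partial, with 5' ends 339 and 127 bp further downstream, so Ensembl's were used. A gene counted as occupied when a region touched the window from 500 bp before to 500 bp after its 5' end, and the strongest region was taken. The named genes were all members, for each peak the 2 genes nearest in rank, neighbours within 1000 bp, and every occupied list gene. Members and gene lists were chosen with earlier results of these data known. The 3' ends, the RefSeq 5' ends and the split of promoters by element were added after seeing the data. Shares carry exact (Clopper-Pearson) 95% intervals, for counting error only. Coding sequences were aligned globally, and 32-base words were counted on both strands of the genome. On simulated data all 200 planted peaks and 200 planted elements were recovered. Lists on build ce10 were not used here. Tools were Biopython 1.88, Matplotlib 3.10.9, pandas 2.3.3, SciPy 1.17.1 and NumPy 2.4.6 under Python 3.11.15.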

Additional observations from a re-analysis of the deposited data

How the results depend on the processing

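The count of 6 members with a peak was 7 in the pooled relaxed list (hsp-4 added), 4 among the 660 strongest thresholded peaks (hsp-70 and hsp-6 lost), 5 with a window of 250 bp (hsp-6 lost) and 6 in each other setting run, from either replicate alone. The share of all genes with a peak (2.51%) was 31.1% in the pooled relaxed list, 0.816% among the 660 strongest peaks, 2.06% by summit, 1.82% with 250 bp, and 2.21% to 2.67% leaving out replicate 1 or replicate 2. Percent ranks differ between lists because their lengths do: at F44E5.4 and F44E5.5 0.303% of the thresholded list is 0.0194% of the pooled list and 0.00667% to 0.0233% of the replicates' own. The same 3 figures were 51.4%, 3.29% and 2.18% to 2.40% at hsp-70, 19.1%, 1.22% and 0.767% to 0.943% at hsp-1, 23.4%, 1.496% and 0.997% to 1.103% at hsp-110, and 55.5%, 3.55% and 2.44% to 2.57% at hsp-6. Leaving out each replicate, summits ran from -158 to -176 bp at F44E5.4, -175 to -193 bp at F44E5.5, -80 to -103 bp at hsp-70, -412 to -414 bp at hsp-1, -236 to -254 bp at hsp-110 and -335 to -372 bp at hsp-6. From the coding start they were -211, -236, -129, -419, -264 and -377 bp. With 2 units, or with 1 mismatch in 3 units, 7 genes had an element (hsp-4 added), where 48.3% and 35.6% of promoters did. The promoter windows planned from a RefSeq table were not run, since no such table was used here. No paired analysis was possible because there is 1 group and no test. The unknown depth limits what the lack of a thresholded peak at hsp-3 and hsp-4 can show.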
